A study of Mus musculus with 18 samples.

Results

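The heat shock chaperones described here are 10 mouse genes of 45706 in each table: Hspa1a, Hspa1b, Hspa8, Hsph1, Hsp90aa1, Hsp90ab1, Dnajb1, Hspd1, Hspe1 and Hsf1. They were chosen by name, and the set was proposed because Hspa1a had been noticed for its lower level with ibrutinib in repeat peptide stimulated cells. That contrast is therefore given as a description, with no test. All 10 genes were among the 12255 that passed the filter on low counts, Hspa1a only through its counts in repeat peptide cells. RNA-seq was made from OT-I cells, CD8+ T cells whose receptor recognizes a peptide of ovalbumin, and the labels list every library as wild type. Repeat peptide stimulated cells received the peptide (10 ng/ml) every day up to day 5, and single peptide stimulated cells received it once and were then washed. By the study's methods, repeat peptide cells treated with ibrutinib still had peptide in their medium after day 5. The methods do not name those with DMSO, but the study's results state that, without washing, stimulation by the peptide lasted as long as the cultures. For the next 3 days the cells of both kinds were kept with DMSO, the solvent, or 1 µM ibrutinib, a covalent inhibitor of the kinase BTK, and were collected on day 8. There were 4 libraries of repeat peptide cells with DMSO, 5 of repeat peptide cells with ibrutinib, 5 of single peptide cells with DMSO and 4 of single peptide cells with ibrutinib. The labels tie each culture to an experiment, lettered A to F here. Experiments A to D gave a library in every group, E only a repeat peptide library with ibrutinib, and F only a single peptide library with DMSO. The genotype entry of B to E names a btk knockout, which was taken as a project name because the strain entry is wild type. The cultures are an in vitro model of exhaustion made from purified cells of 1 receptor specificity.

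Heat shock proteins hold unfolded proteins and help them to fold. HSP70 proteins bind short exposed stretches of a chain, HSP40 (DNAJ) partners bring them the chain and trigger their ATPase, HSP110 proteins exchange the nucleotide, and HSP90 finishes many kinases and receptors. HSF1, the transcription factor of the heat shock response, is kept inactive by chaperones and binds heat shock elements, inverted repeats of GAA, once unfolded proteins draw the chaperones away. T cells use the same system when they grow after antigen, and HSP90 keeps several kinases of T cell receptor signaling folded.

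The expected count of a library, its estimated number of reads in genes, ranged from 23445922 to 51995372 (median 27420966). The genes that mark CD8 T cells were abundant, with a summed level of 3520 to 5070 TPM (a level per length, scaled to the same total in every library) over 8 genes in all groups. Summed B cell markers (7 genes) lay between 1.44 and 8.07 TPM and myeloid and dendritic markers (10 genes) between 0.5 and 9.62 TPM. Of 5 erythroid genes, 2 had no count in any library. Summed CD4 T cell markers were 16.4 to 21.4 TPM in repeat peptide cells with DMSO and 2.08 to 11.1 TPM in single peptide cells with DMSO. Most of the sum in the former was Zbtb7b, at 15.28 to 20.74 TPM against 1 to 5.6 TPM in the latter. Cd40lg was at 0.56 to 1.53 against 0 to 0.22 TPM. Foxp3 went the other way, at 0 to 0.08 against 0.77 to 5.55 TPM, and Cd4 itself never exceeded 0.17 TPM. NK markers (4 genes) summed to 702 to 1010 TPM in repeat and 650 to 856 TPM in single peptide cells with DMSO, nearly all of it Nkg7, which activated CD8 T cells also express. In the same groups Klri2 was at 5.33 to 14.53 against 0.19 to 0.5 TPM and Klrb1c at 2.64 to 11.33 against 0.51 to 1.94 TPM. Ncr1 went the other way, at 0 to 0.03 against 0 to 1.16 TPM. Of the myeloid markers, Cd14 was at 1.1 to 2.92 against 0 to 0.04 TPM, and Lyz2 at 0 to 0.04 against 0 to 5.92 TPM. The part of these cells or genes in the results below was not tested. In bulk RNA, fewer cells of a type and less RNA per cell cannot be told apart.

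Hspa1a and Hspa1b encode the stress-inducible HSP70 and lie next to each other in the major histocompatibility region. Hspa1a (ENSMUSG00000091971) is at chr17:34969190-34972156 on the minus strand of GRCm38, and Hspa1b (ENSMUSG00000090877) at chr17:34956436-34959238 on the same strand. Their start regions are shown because they are the genes that moved most, and because they show how far the copies can be told apart. The sequences are the 250 bases before the transcription start from RefSeq (GRCm38.p6, minus strand), written from 5′ to 3′, with capitals for the motif GAANNTTC, a pair of inverted GAA units.
Hspa1a, chr17:34972157-34972406: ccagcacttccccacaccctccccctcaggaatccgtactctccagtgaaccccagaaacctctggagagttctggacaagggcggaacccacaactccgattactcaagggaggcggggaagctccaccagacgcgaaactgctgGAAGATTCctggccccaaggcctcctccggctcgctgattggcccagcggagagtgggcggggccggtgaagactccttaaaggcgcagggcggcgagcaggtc
Hspa1b, chr17:34959239-34959488: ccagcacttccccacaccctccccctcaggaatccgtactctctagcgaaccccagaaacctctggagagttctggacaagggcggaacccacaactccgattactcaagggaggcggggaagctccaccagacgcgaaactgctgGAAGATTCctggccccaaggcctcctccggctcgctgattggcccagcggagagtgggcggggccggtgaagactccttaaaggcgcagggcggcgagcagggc
Without gaps, 247 of these 250 bases (98.8%) are the same in both genes, and the longest shared stretch is 201 bases. Each window holds GAAGATTC at bases -104 to -97 before the start. GAANNTTC and TTCNNGAA, its counterpart with the units facing the other way, read the same on both strands, and the windows searched run from 250 bases before to 50 after the start. GAANNTTC is in 7.86% of 32851 RefSeq windows of mouse genes, TTCNNGAA in 8.52%, and at least 1 of them in 15.1%. Of the other genes, Hsph1, Dnajb1, Hspd1 and Hspe1 had windows in the table. The window of Hspe1 holds 3 overlapping matches, TTCTAGAA at -89 to -82, GAACCTTC at -84 to -77 and TTCCGGAA at -79 to -72. Hspd1 and Hspe1, the partners of the mitochondrial chaperonin, start head to head, and the same 3 matches are in 1 of the 2 windows of Hspd1. Hsph1 has TTCTCGAA at -33 to -26 of its first window, TTCTGGAA at 36 to 43 and GAAAGTTC at 41 to 48. Neither window of Dnajb1 holds either motif. Such a match is only a run of letters and was not tied to binding of HSF1.

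In repeat peptide stimulated cells, Hspa1a and Hspa1b were the heat shock genes with the lowest level and the widest spread. Normalized counts (each library's counts brought to the average effective depth) of Hspa1a were 90.73, 54.3, 80.86 and 856 in experiments A, B, C and D with DMSO. With ibrutinib they were 18.19, 9.1, 11.19 and 60.76 in the same experiments and 7.141 in E. Each experiment was thus lower with ibrutinib, while D stood far above the others in both treatments and its ibrutinib library exceeded the DMSO library of B. In single peptide stimulated cells, Hspa1a was at 0, 2.163, 5.098, 15.74 and 3.834 with DMSO in A, B, C, D and F, and at 2.844, 0, 3.709 and 4.108 with ibrutinib in A to D. These are 0 to 17.36 expected counts per library, and a library at 0 still allows up to 3 counts, by counting error alone. Hspa1b was at 136.1, 50.35, 106.3 and 697 in repeat peptide cells with DMSO and at 43.66, 30.71, 35.81 and 72.47 with ibrutinib in A to D, with 22.61 in E. In single peptide cells it was at 23.94, 5.409, 28.04, 38.88 and 11.5 with DMSO and at 20.86, 17.8, 12.98 and 19.51 with ibrutinib.

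Reads of the copies cannot be cleanly separated. Of all stretches of 100 bases in the longest Hspa1a transcript, 47.1% are also in Hspa1b, and of those in Hspa1b 49.9% are in Hspa1a. RSEM shares such reads out, so that each gene had a fractional expected count in 16 of 18 libraries. The sum of both genes was whole in 18 of 18 libraries, within 0.02 of a count, so the fractions were exchanged between these copies alone. The share of Hspa1a in the sum was 40.0% to 55.1% in repeat peptide cells with DMSO, 23.2% to 45.7% in repeat peptide cells with ibrutinib, 0% to 33.1% in single peptide cells with DMSO and 0% to 19.8% in single peptide cells with ibrutinib. The share tended to be higher where the sum was higher. In repeat peptide cells, D had both the highest sum and the highest share with each treatment (55.1% with DMSO and 45.7% with ibrutinib). The order was not strict, since within both DMSO groups the lowest sum (B) had a higher share than A. The share also depends on how reads were shared out.

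The sum of the copies avoids this limit. It was 226.8, 104.6, 187.2 and 1553 normalized counts in repeat peptide cells with DMSO in A, B, C and D. With ibrutinib it was 61.86, 39.82, 47 and 133.2 in the same experiments and 29.75 in E. The groups overlapped only through experiment D with ibrutinib, which was above B with DMSO. In single peptide cells the sum was 23.94, 7.572, 33.14, 54.61 and 15.34 with DMSO in A, B, C, D and F, and 23.7, 17.8, 16.69 and 23.62 with ibrutinib. Every repeat peptide library with DMSO was above every single peptide library, DMSO or ibrutinib. The 5 repeat peptide libraries with ibrutinib were all above the single peptide libraries with ibrutinib, and 3 of them lay within the range of the single peptide libraries with DMSO.

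**Figure D1:**
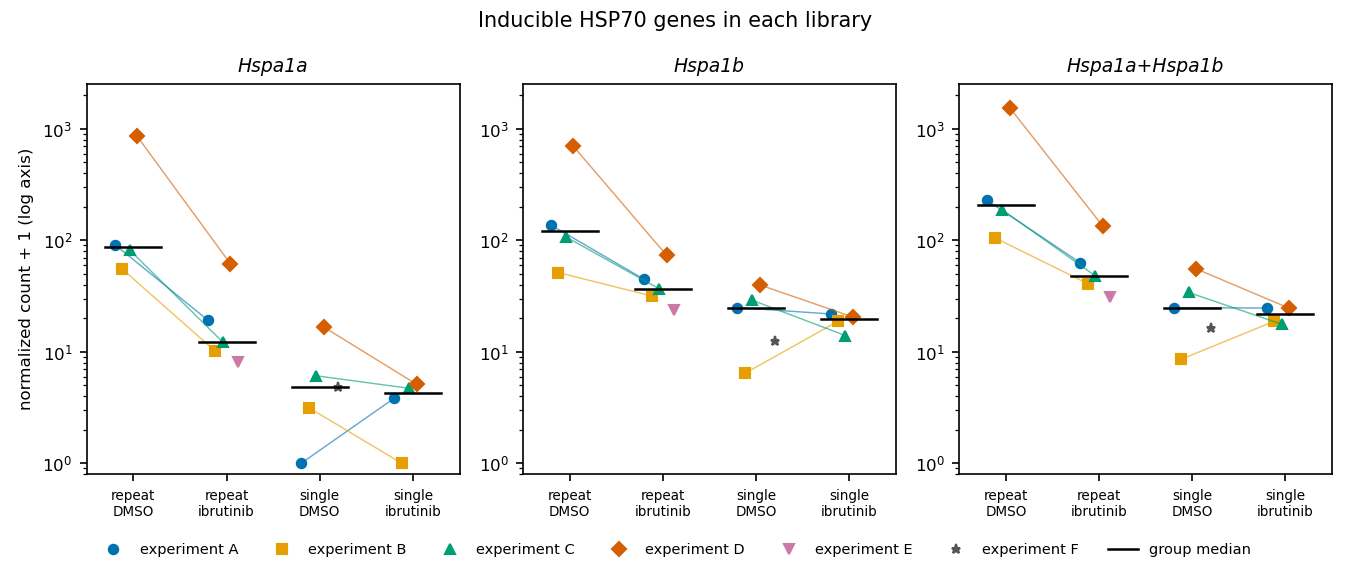
Normalized counts of the inducible HSP70 genes plus 1, on a log axis, in 18 libraries by group, for each copy and for their sum. Points are libraries marked by experiment, thin lines join the DMSO and ibrutinib libraries of an experiment, and black bars are group medians; the sum is 104.6 to 1553 in repeat peptide cells with DMSO and 7.572 to 54.61 in single peptide cells with DMSO.

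Between ibrutinib and DMSO in repeat peptide stimulated cells, the fitted log2 fold change was -3.58 (SE 0.85) for Hspa1a, -2.57 (SE 0.61) for Hspa1b and -3.02 (SE 0.66) for their sum. Within experiments A to D, the sum was lower with ibrutinib in 4 of 4, by log2 differences of -3.52 to -1.35. These values include the contrast by which Hspa1a was chosen and are a description. In this comparison 4.01% of all genes tested were called higher and 1.92% lower, and 0 of the 10 genes were called higher and 2 lower, from which nothing is read. A call required 3 things, an adjusted p below 0.05 (edgeR's quasi-likelihood test, Benjamini-Hochberg over all tested genes), 50 or more normalized counts on average, and a log2 fold change beyond 0.2 in either direction. One library carried much of the size. Without the DMSO library of experiment D, the log2 fold changes were -1.76 for Hspa1a, -1.22 for Hspa1b and -1.44 for the sum. That library had 26669644 expected counts, within the range of its group (24174545 to 37951343), and of the 4 DMSO libraries it had the highest normalized count of each of the 10 genes but Hsf1. The part of that library's other features in the result was not tested.

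For the other 8 genes in repeat peptide cells, the fitted log2 fold changes lay between -0.28 (Hspd1, SE 0.14) and 0.33 (Hspe1, SE 0.30). Hsp90aa1 and Hspd1 were lower with ibrutinib in 4 of 4 experiments, by log2 differences of -0.58 to -0.09 and of -0.41 to -0.01. With the experiment in the fit as a replicate block, Hsp90aa1 was at -0.32 (SE 0.10). In that fit the libraries of E and F, each alone in its experiment, do not enter a difference between groups. The remaining 6 genes were higher in some experiments and lower in others. Hspe1 was at 5847 normalized counts in experiment E and at 1850 to 3471 in the other ibrutinib libraries of repeat peptide cells. The gap between the annotated and the effective length of genes, which follows fragment size, was 339.8 bases in that library. It was 338.4 bases in the single peptide DMSO library of D, which had the next highest Hspe1 count (5058), and 346.4 to 406.7 bases in the other 16. Hspe1 has the shortest effective length of the 10 genes, 405 bases on average, and the part of fragment size in its counts was not tested.

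The levels per length fell into tiers. Hspa8, the constitutive HSP70 of the cytosol, had a median of 1949 TPM over 18 libraries (1454 to 2424), and Hsp90ab1, the constitutive HSP90, one of 1661 TPM (1176 to 2123). Their ranges overlapped. Below them came Hsp90aa1, the inducible HSP90, with a median of 273.4 TPM (187 to 500), Hspe1, the mitochondrial HSP10, with 251.6 TPM (213 to 377), and Hspd1, the mitochondrial HSP60, with 204.9 TPM (116 to 296). These 3 overlapped as well. Hsph1, an HSP110, had a median of 57.12 TPM (36.9 to 98.9) and Dnajb1, an HSP40, one of 54.9 TPM (43.8 to 70.7), and their ranges overlapped too. Hsf1 had a median of 26.73 TPM (16.0 to 42.4), and its range met that of Hsph1. Hspa1b and Hspa1a were the lowest at medians of 0.445 and 0.12 TPM, and even in the highest library their sum was 24.17 TPM. Over all libraries the ratio of Hspa8 to the sum of the inducible copies, in TPM, ran from 99.5 to 15700.

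**Figure D2:**
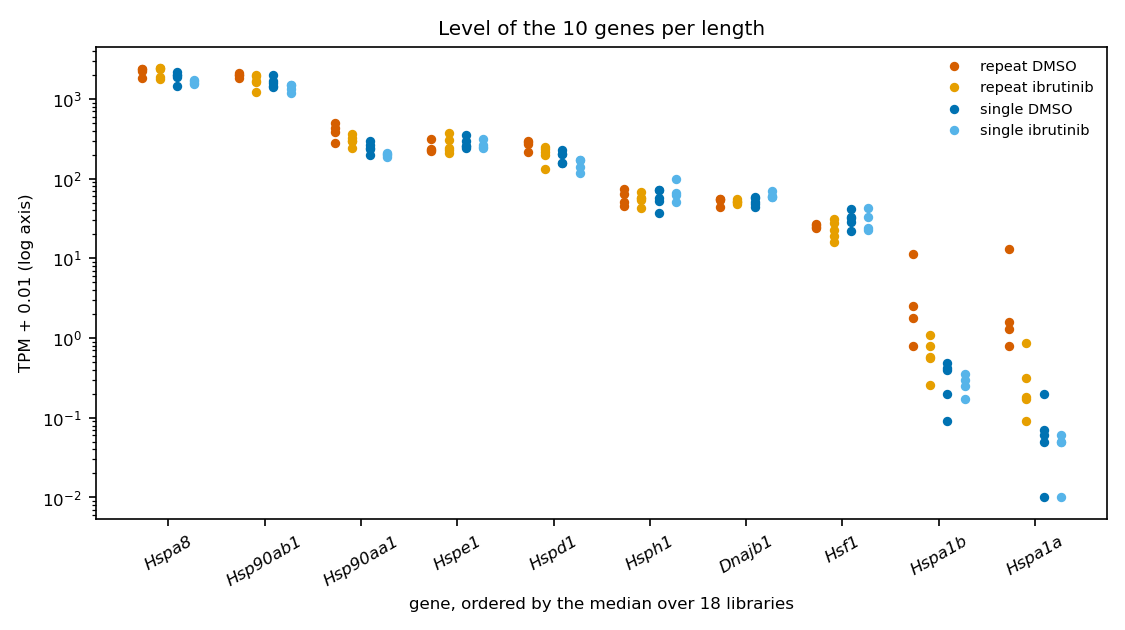
TPM plus 0.01 on a log axis for the 10 genes, ordered by their median over 18 libraries, with a point for each library in the colour of its group. Hspa8 and Hsp90ab1 lie above 1000 TPM in every library, and Hspa1a and Hspa1b lie below all other genes in every library, the highest value being 12.94 TPM.

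Some genes of the set may hold reads of copies elsewhere in the genome. Stretches of 100 bases were shared with transcripts of other genes for 62.8% of the Hspa8 transcript, 47.5% of Hsp90aa1, 26.9% of Hspd1 and 20.4% of Hspe1, and for none of Hsph1, Hsp90ab1, Dnajb1 and Hsf1. Hspa8 and Hsp90aa1 had fractional expected counts in 18 of 18 libraries. Their values are uncertain to that degree.

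The effect of ibrutinib in single peptide stimulated cells, which the choice of genes did not use, was tested for the other 8 genes. Hspa1a and Hspa1b are described only, because their mean normalized count over all libraries reached the threshold of 50 through the repeat peptide libraries. Of the 8 genes 0 were called, against 0.351% of all genes called higher and 2.69% called lower. At an unadjusted p under 0.05 there were 2 genes, Dnajb1 and Hspd1, and DESeq2 called 0. For the sum of Hspa1a and Hspa1b, the log2 fold change was -0.41 (SE 0.74), with an interval from -1.97 to 1.15, at 7 to 59 expected counts per library. The interval allows both a fall and a rise of more than 2-fold. The ibrutinib effect on the sum was more negative in repeat than in single peptide cells, with a log2 difference of -2.61 (SE 0.98), which includes the contrast used for the choice and was not tested. It was -1.03 without the DMSO library of D.

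Dnajb1 was at 2681, 2573, 3252, 3005 and 2150 normalized counts in single peptide cells with DMSO in A, B, C, D and F, and at 3437, 2811, 3976 and 3718 with ibrutinib in A to D. It was higher with ibrutinib in 4 of 4 experiments, and the groups overlapped because B with ibrutinib was below C and D with DMSO. The log2 fold change was 0.35 (SE 0.13, adjusted p = 0.216). Hspd1 was at 10120, 10800, 13770, 10610 and 8012 with DMSO and at 8716, 8648, 9720 and 7632 with ibrutinib in the same order. It was lower with ibrutinib in 4 of 4 experiments, and only F with DMSO lay within the ibrutinib range. Its log2 fold change was -0.30 (SE 0.14, adjusted p = 0.362). Libraries of an experiment deviated together, and with the experiment in the fit as a replicate block both genes passed the thresholds. Dnajb1 then rose by 0.27 on the log2 scale (SE 0.07, adjusted p = 0.0202) and Hspd1 fell by 0.38 (SE 0.10, adjusted p = 0.0271). In that fit 2.77% of all genes were called higher and 6.32% lower, and 1 of the 8 genes was called in each direction. The remaining 6 had values between -0.24 (Hspa8) and 0.13 (Hsph1) with adjusted p-values of 0.151 to 0.914 in the fit with the block. Hspa8, Hsp90aa1 and Hsp90ab1 were lower with ibrutinib in 4 of 4 experiments, by log2 differences between -0.42 and -0.07, and Hsph1 was higher in 4 of 4, by 0.02 to 0.22, and none of these passed either test.

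**Figure D3:**
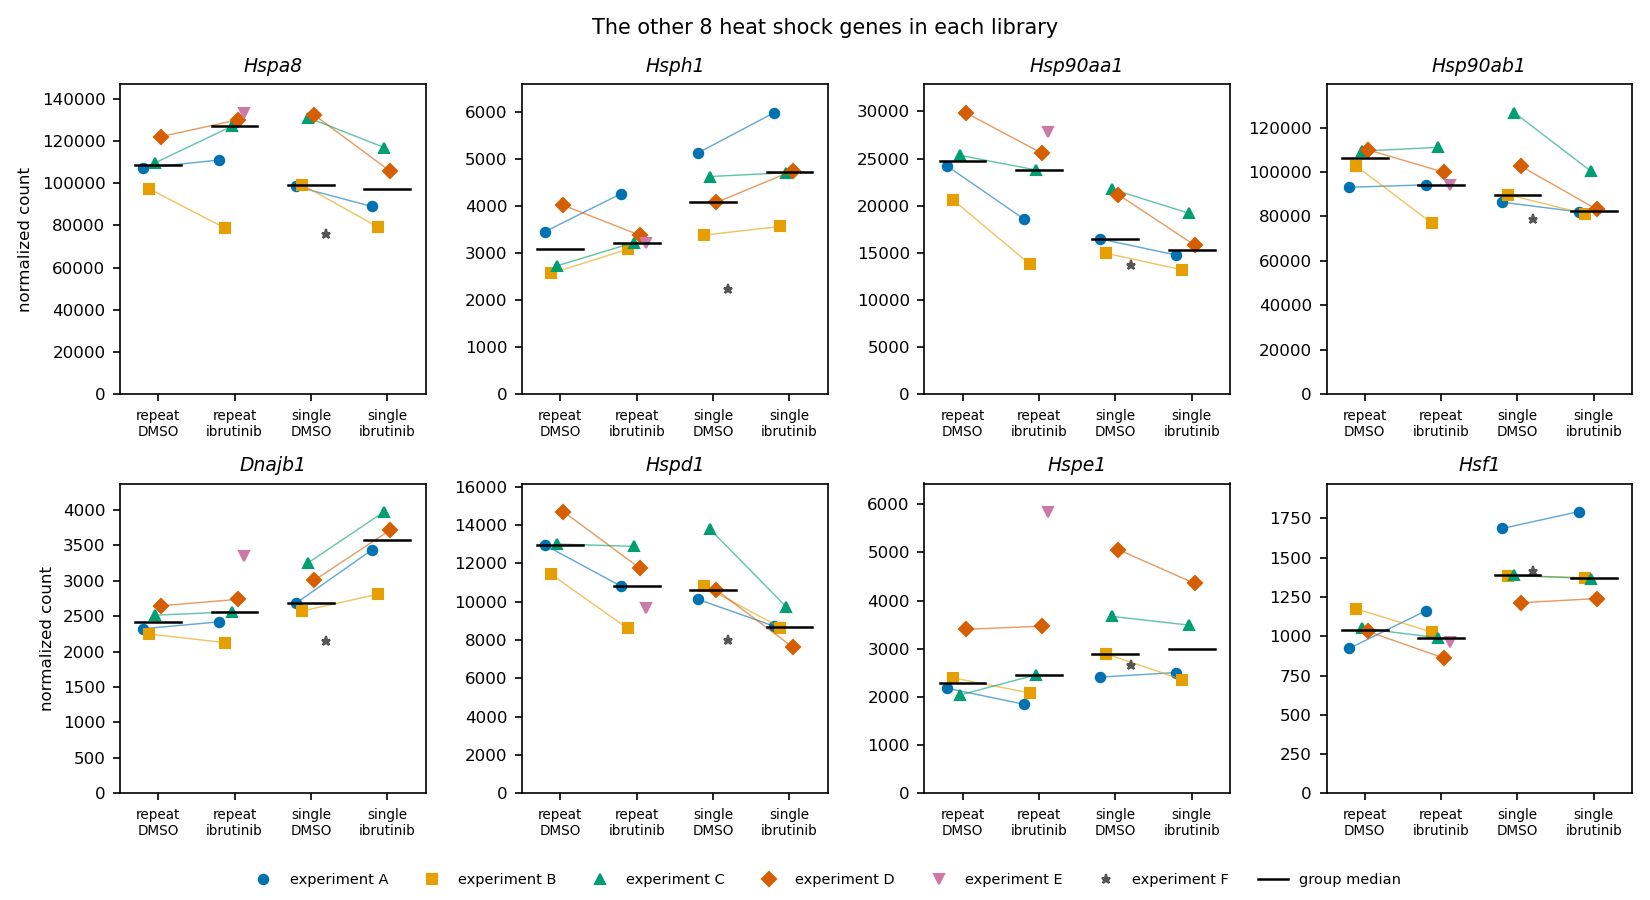
Normalized counts of the other 8 genes in 18 libraries by group, on linear axes from 0. Points are libraries marked by experiment, thin lines join the DMSO and ibrutinib libraries of an experiment, and black bars are group medians; Hsf1 is at 860.2 to 1176 in repeat and at 1213 to 1793 in single peptide cells, without overlap.

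Between repeat and single peptide stimulation, 8 genes were tested, and Hspa1a and Hspa1b are described only, because these comparisons share libraries with the contrast used for the choice. With DMSO, 1 of 8 was called higher (Hsp90aa1) and 1 lower (Hsf1), against 22.8% of all genes called higher and 24.2% lower. With ibrutinib 0 were called higher and 2 lower (Dnajb1 and Hsf1), against 18.7% and 19.6%. At 8 genes, these counts are near the background. With the replicate block, 1 was called higher and 4 lower with DMSO (background 26.2% and 27.4%), and 2 higher and 4 lower with ibrutinib (background 22.5% and 26.0%). Each comparison shares its single peptide libraries with the comparison of ibrutinib with DMSO, and experiments A to D gave libraries to both.

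Hsf1 was the gene whose groups stood apart. Its normalized count was 923.5, 1176, 1051 and 1031 in repeat peptide cells with DMSO in A to D, and 1162, 1026, 990.3 and 860.2 with ibrutinib, with 960.4 in E. In single peptide cells it was 1686, 1386, 1387, 1213 and 1415 with DMSO in A, B, C, D and F, and 1793, 1373, 1367 and 1240 with ibrutinib in A to D. All 9 repeat peptide libraries were thus below all 9 single peptide libraries. The log2 fold change of repeat over single peptide was -0.44 (SE 0.12, adjusted p = 0.0055) with DMSO and -0.53 (SE 0.12, adjusted p = 0.00174) with ibrutinib, and the gene stayed past the thresholds in all alternatives of both comparisons. On the TPM scale the groups overlapped, at 16.04 to 31.04 in repeat and 22.05 to 42.41 in single peptide cells. In experiment D with DMSO, Hsf1 had a higher TPM in repeat (24.43) than in single peptide cells (22.05). Its TPM was lower in repeat peptide cells in A, B and C with DMSO and in A to D with ibrutinib. Between ibrutinib and DMSO in single peptide cells, Hsf1 had a log2 fold change of 0.03 (SE 0.12, adjusted p = 0.966), with an interval from -0.23 to 0.28.

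Hsp90aa1 was at 24190, 20580, 25340 and 29860 normalized counts in repeat peptide cells with DMSO and at 16480, 14950, 21740, 21170 and 13740 in single peptide cells with DMSO. Repeat peptide cells were higher in 4 of 4 experiments, and B with repeat peptide lay within the single peptide range. It rose by 0.50 on the log2 scale (SE 0.19, adjusted p = 0.0315), and by 0.44 with the block (adjusted p = 0.000933). The call without the block was lost without C or D of the repeat peptide libraries (adjusted p = 0.0609 and 0.104), without A, B or F of the single peptide libraries (0.0605, 0.0675 and 0.0805), without experiment D (0.0878) and with an offset for effective length (0.0563). With ibrutinib the log2 fold change was 0.48 (SE 0.19, adjusted p = 0.0519), and with the block it was 0.35 (adjusted p = 0.00568). Its constitutive relative Hsp90ab1 had log2 fold changes of 0.10 (SE 0.14, adjusted p = 0.571) with DMSO and 0.14 (SE 0.14, adjusted p = 0.467) with ibrutinib. The ratio of Hsp90aa1 to Hsp90ab1, in TPM, was 0.201 ± 0.040 (SD, n = 4) in repeat peptide cells with DMSO and 0.185 ± 0.043 (SD, n = 5) in those given ibrutinib. It was 0.153 ± 0.031 (SD, n = 5) in single peptide cells with DMSO, and those given ibrutinib had 0.146 ± 0.012 (SD, n = 4).

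Dnajb1 and Hsph1, which work with HSP70, had lower normalized counts in repeat than in single peptide cells within experiments A to D. On the TPM scale the means with DMSO were alike, at 52.44 in repeat and 51.9 in single peptide cells for Dnajb1 and 58.82 and 58.64 for Hsph1. With ibrutinib these means were 51.97 and 62.36 for Dnajb1 and 55.73 and 69.69 for Hsph1. In experiment D with DMSO both genes had a higher TPM in repeat peptide cells. Dnajb1 was at 2323, 2249, 2515 and 2648 normalized counts in repeat peptide cells with DMSO in A to D, and at 2421, 2126, 2561 and 2738 with ibrutinib, with 3344 in E. It was below single peptide cells in 4 of 4 experiments with DMSO and in 4 of 4 with ibrutinib. With ibrutinib it fell by 0.40 on the log2 scale (SE 0.13, adjusted p = 0.0216), and by 0.50 with the block (adjusted p = 1.82e-05). Without the block, leaving out A or B of the repeat peptide libraries (adjusted p = 0.063 and 0.069), A, C or D of the single peptide libraries (0.0559, 0.0963 and 0.0716) or experiment D (0.0934) ended the call, as did a fit of only the groups compared (0.0554). With DMSO the log2 fold change was -0.17 (SE 0.14, adjusted p = 0.31), and with the block it fell by 0.24 (adjusted p = 0.00709). Hsph1 was lower in repeat peptide cells in 4 of 4 experiments with each treatment. Its log2 fold change was -0.28 (SE 0.20, adjusted p = 0.243) with DMSO and -0.47 (SE 0.20, adjusted p = 0.0645) with ibrutinib, and with the block it fell by 0.43 in both (adjusted p = 0.00158 and 0.0018). Hspa8 did not pass either test, with log2 fold changes of 0.02 (SE 0.18, adjusted p = 0.929) with DMSO and 0.25 (SE 0.18, adjusted p = 0.285) with ibrutinib.

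The partners of the mitochondrial chaperonin, which assemble in 1 complex, had unlike values. Hspd1 had log2 fold changes of 0.29 (SE 0.14, adjusted p = 0.09) with DMSO and 0.31 (SE 0.14, adjusted p = 0.086) with ibrutinib, and with the block it passed with ibrutinib only, where it rose by 0.33 (adjusted p = 0.0111). Hspe1 was lower in repeat peptide cells in 4 of 4 experiments with each treatment. Its log2 fold change was -0.42 (SE 0.30, adjusted p = 0.255) with DMSO, and with the block it fell by 0.45 (adjusted p = 0.00122). With ibrutinib the value was -0.02 (SE 0.30, adjusted p = 0.97), and it was -0.36 (adjusted p = 0.259) without the library of E and -0.37 (adjusted p = 0.00653) with the block. The ratio of Hspd1 to Hspe1, in TPM, was 1.09 ± 0.18 (SD, n = 4) in repeat peptide cells with DMSO and 0.695 ± 0.163 (SD, n = 5) in single peptide cells with DMSO. It was 0.810 ± 0.298 (SD, n = 5) and 0.572 ± 0.156 (SD, n = 4) with ibrutinib.

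**Figure D4:**
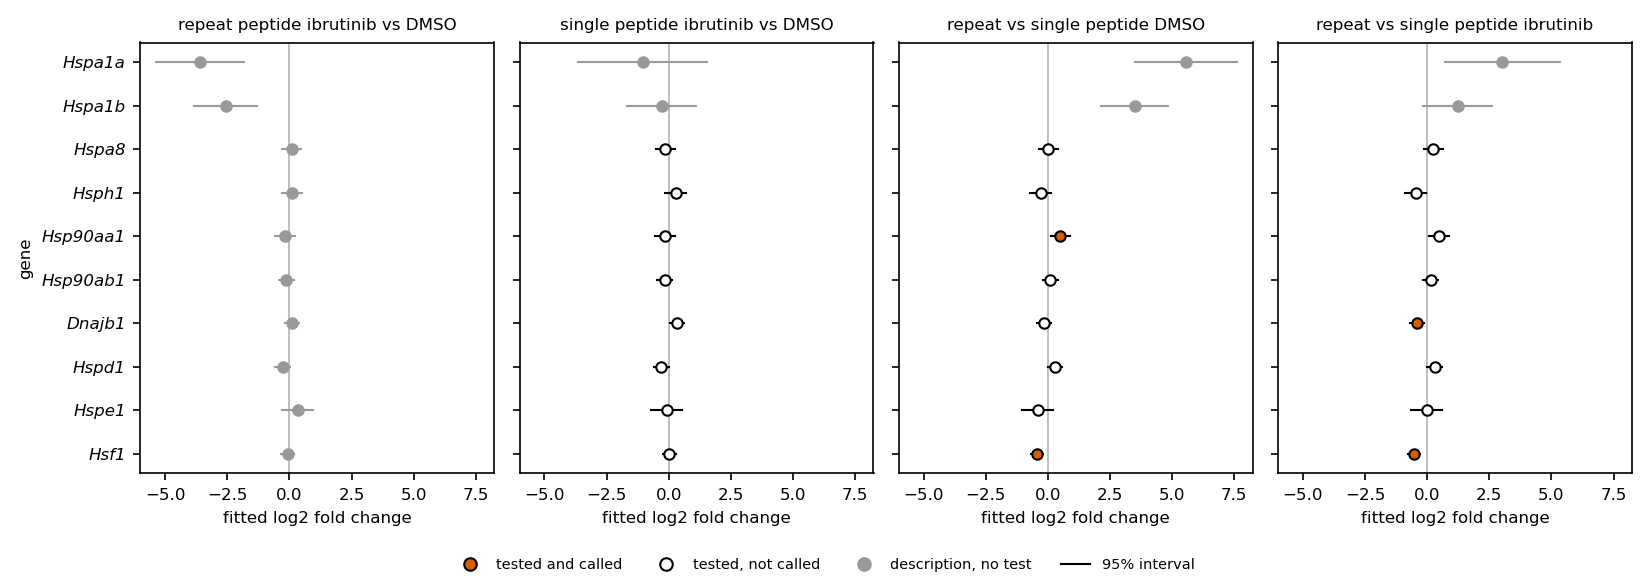
Fitted log2 fold changes of the 10 genes in the 4 comparisons, on the same horizontal scale, with bars for the 95% interval. Filled orange points were tested and called, open points were tested and not called, and grey points, which include Hspa1a and Hspa1b throughout, are descriptions with no test; Hsf1 is called lower in both comparisons of repeat with single peptide cells.

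For the inducible copies in the same comparisons, the sum of Hspa1a and Hspa1b had a fitted log2 fold change of 4.24 (SE 0.71) between repeat and single peptide cells with DMSO and of 1.63 (SE 0.72) with ibrutinib, with no test. It was higher in repeat peptide cells in 4 of 4 experiments with each treatment, by log2 differences of 2.43 to 4.78 and of 1.08 to 2.40. Without the DMSO library of D, the first value was 2.68.

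Beyond the 10 genes, 95 other genes of folding and of the heat shock response were tested in 9 lists. In single peptide cells ibrutinib gave 0 calls among them in edgeR's test, against 0.351% of all genes called higher and 2.69% lower. There were 7 at an unadjusted p under 0.05 and 0 calls by DESeq2. The replicate block gave 2 calls of a rise and 7 of a fall, against 2.77% and 6.32% of all genes in that fit. These counts are near that background. In repeat peptide cells, as a description, 1 was called higher and 2 lower, against 4.01% and 1.92% of all genes. The gene called higher was Dnaja4 (an HSP40, log2 fold change 0.35). Those called lower were Hspa4l (an HSP110, -0.53) and Atf3 (a stress-induced transcription factor, -2.07). These 3 were named after their values were seen. Between repeat and single peptide cells 31 of 95 were called higher and 12 lower with DMSO, or 32.6% and 12.6% against 22.8% and 24.2% of all genes. With ibrutinib 24 were called higher and 10 lower, or 25.3% and 10.5% against 18.7% and 19.6%. The median log2 fold change of the 95 was 0.12 with DMSO and 0.10 with ibrutinib, against 0.00 and -0.02 over all genes.

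The counts by list, here and below, stand beside 22.8% of all genes called higher and 24.2% lower with DMSO. With ibrutinib these shares were 18.7% and 19.6%. Each list is short, and none was tested as a set. Among other HSP70 and HSP110 genes, 4 of 4 tested were called higher in repeat peptide cells with each treatment. Hspa2, an HSP70 best known from the testis, rose most, by 2.49 (SE 0.37, adjusted p = 2.02e-05) on the log2 scale with DMSO and by 2.05 (SE 0.38, adjusted p = 0.000319) with ibrutinib. Of 12 chaperones of the endoplasmic reticulum, 7 were called higher and 2 lower with DMSO, and 8 and 2 with ibrutinib. The ends of this list with DMSO were Sdf2l1, a component of chaperone complexes there, which rose by 0.92 (SE 0.24, adjusted p = 0.00406), and Dnajb9, a DNAJ partner of BiP, which fell by 0.48 (SE 0.18, adjusted p = 0.0328). Of 15 other DNAJ genes, 2 were called higher and 4 lower with DMSO, and 2 and 5 with ibrutinib. Dnaja4 fell by 1.13 (SE 0.10, adjusted p = 3.56e-08) and Dnajc9, a histone chaperone, rose by 0.80 (SE 0.16, adjusted p = 0.000508) with DMSO.

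Of 22 exchange factors and HSP90 co-chaperones, 3 were called higher and 4 lower with DMSO, and 3 and 1 with ibrutinib. These are no more than the shares over all genes. Bag3, an HSF1 target that links HSP70 to autophagy, rose by 1.16 (SE 0.27, adjusted p = 0.00131) with DMSO and by 1.37 (SE 0.28, adjusted p = 0.000625) with ibrutinib, and Bag5 fell by 0.40 (SE 0.11, adjusted p = 0.00562) and 0.47 (SE 0.11, adjusted p = 0.00214). Of 15 genes of the chaperonin TRiC and of prefoldin, 4 were called higher with DMSO and 1 with ibrutinib, led by Pfdn1 at 0.81 (SE 0.27, adjusted p = 0.0178) and 0.79 (SE 0.28, adjusted p = 0.028). Of 11 mitochondrial chaperones and proteases, 3 were called higher and 1 lower with DMSO and 1 each way with ibrutinib. Clpb rose by 0.73 (SE 0.17, adjusted p = 0.00121) and Trap1, the mitochondrial HSP90, fell by 0.29 (SE 0.07, adjusted p = 0.00206) with DMSO. With ibrutinib Grpel2, a mitochondrial exchange factor, fell by 0.39 (SE 0.12, adjusted p = 0.0123). Only 2 of 10 small heat shock genes passed the filter on low counts, and Hspb6 was called at 0.61 (SE 0.24, adjusted p = 0.0386) with DMSO and 0.66 (SE 0.24, adjusted p = 0.034) with ibrutinib. The calls of Hspb6, Pfdn1 and Dnajb9 in both comparisons, and of Grpel2 and Ier5 with ibrutinib, were lost when some single libraries were left out.

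Of 4 other heat shock factors and regulators tested, 2 were called higher with DMSO and 0 with ibrutinib, with Hsf2 at 0.85 (SE 0.16, adjusted p = 0.000162) with DMSO. Hsf1 and Hsf2, which can form joint trimers, were thus called in opposite directions between the DMSO groups. Of 10 heat-inducible genes outside the chaperones, 5 were called higher and 1 lower with DMSO and 4 and 1 with ibrutinib. Atf3 was at 6.78 to 21.2 TPM in repeat peptide cells with DMSO, 1.31 to 4.77 with ibrutinib, 0.13 to 0.94 in single peptide cells with DMSO and 0.04 to 0.91 with ibrutinib. It rose with repeat peptide by 5.29 (SE 0.60, adjusted p = 1.19e-06) with DMSO and 4.03 (SE 0.66, adjusted p = 8.36e-05) with ibrutinib, and Ier5, which can activate HSF1, fell by 0.74 (SE 0.21, adjusted p = 0.00667) and 0.72 (SE 0.21, adjusted p = 0.00959). Of 14 immediate early genes, which answer T cell receptor signals and tissue handling alike, repeat peptide cells with DMSO had 5 called higher and 2 called lower, and their summed level was 643 to 951 TPM against 478 to 999 TPM in single peptide cells. With ibrutinib 4 were called higher and 1 lower. Ibrutinib itself gave 1 call in each direction in single peptide cells, against 0.351% of all genes called higher and 2.69% lower. In repeat peptide cells, as a description, it gave 1 call of a rise and 2 of a fall, against 4.01% and 1.92% of all genes. The part of the immediate early genes in the levels of the heat shock genes was not tested.

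Across the 18 libraries, with group means taken out, the log2 library-scaled counts of some chaperones moved together and those of others did not. Pearson's r was 0.947 between Hspa8 and Hsp90aa1, 0.910 between Hspa8 and Dnajb1 and 0.904 between Hsp90aa1 and Dnajb1. It was lower for all other pairs, with 0.86 between Hsp90ab1 and Hspd1, 0.828 between Hspa8 and Hsp90ab1 and 0.777 between Dnajb1 and Hspe1. Further down it was 0.35 between Hsph1 and Hsp90ab1, 0.132 between Hspd1 and Hspe1 and 0.0977 between Hsph1 and Hspe1. It was 0.437 between Hspa8 and the sum of Hspa1a and Hspa1b, and -0.412 between Hspa8 and Hsf1. These are descriptions over libraries that share experiments and fragment sizes. The genes most like the sum of Hspa1a and Hspa1b over 18 libraries were Lmna, which encodes lamin A and C (r = 0.942), Cgref1, Inka2, Yars and Cars (0.924 to 0.914), with Ctdspl (0.876), Lmna, Tmem185a, Arhgap5 and Myo18a (0.803) once group means were taken out. Those most like Hsp90aa1 were Morf4l2 (0.968), Nudcd2, Eif2s1, Ran and Fam216a (0.950), and, with group means taken out, Psmd12 (0.953), Morf4l2, Txnl1, Mydgf and Strap (0.934).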

How the data were processed

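The deposited tables hold, for each of 18 libraries, the expected count, TPM and effective length of 45706 genes. The authors trimmed the reads, mapped and counted them on GRCm38 with RSEM (1.3.1 in the submitters' processing notes) and deposited expected counts, which RSEM estimates and which can be fractional. The deposited TPM values have a common library total and served here for levels only. The deposited effective length in bases is the other value used, in an alternative. After rounding, 27903 protein-coding or lncRNA genes of GENCODE M21 (45143 identifiers matched) were kept, with 98.5% of all counts. The 12255 that passed filterByExpr in edgeR got TMM factors and were tested with glmQLFit (robust) and glmQLFTest in a single fit of 4 groups (R 4.3.3, edgeR 4.0.16, limma 3.58.1, DESeq2 1.42.0). A call needs all of an adjusted p (Benjamini-Hochberg) below 0.05, 50 or more normalized counts on average and a log2 fold change beyond 0.2 either way. Log2 library-scaled counts used a prior count of 2.

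The members and the gene lists were chosen with earlier results of these data known. Named genes are the members, the called genes with the largest rise and fall of each list in a tested comparison, and the 5 genes, members apart, most alike to the sum of Hspa1a and Hspa1b and to Hsp90aa1. The total expected count ranged from 23445922 to 51995372 per library, so counting error matters for Hspa1a and Hspa1b only, and the spread between cultures sets the p-values. Within groups, chi-square divided by its degrees of freedom was 27.3 to 209 between libraries, above sampling noise, so none was taken for a second deposit of another. No source says that the cultures of an experiment came from separate mice, so p-values measure the spread between these cultures.

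The genotype text of the labels gives the experiment. In all 24 cases, libraries of 1 experiment in different groups correlated in their deviations from group means (0.16 to 0.494, median 0.325). In 97 other pairs the range was -0.44 to 0.404 (median -0.0765), so the ranges overlapped. On the medians, experiments were taken to pair the libraries. The paired alternative adds the experiment as a block. E and F have a single library each, so in that fit the differences between groups rest on A to D. On simulated counts for the single peptide comparison, with 12089 genes tested, 76.0% of 100 genes changed 1 log2 unit and 94.0% of 100 changed 2 units were called, with 4 unchanged genes called. The simulated libraries had no experiment effect and no change below 1 log2 unit. These rates therefore do not cover changes as small as those of the members tested in that comparison. The settings changed in turn were the size factors (DESeq2's), the filter (none), the block, a fit of the compared groups, DESeq2's Wald test, an effective length offset, all gene types, summed copies, no fold or mean threshold, and each library left out. Hspa1a and Hspa1b were planned for a test in single peptide cells and are only described there, a change made after their low counts were seen.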

Additional observations from a re-analysis of the deposited data

Results flagged for a closer look

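In 44 checks of a group of 4 or 5 libraries (10 genes and the sum of the copies in 4 groups), 6 had a library far from the others by Dixon's criterion. That criterion flags about 1 in 20 by chance only for normally distributed values. The checks used normalized counts without a log and shared libraries, so the 6 are not set against that rate. The DMSO library of experiment D in repeat peptide cells was the highest for Hspa1a (856 normalized counts, next highest 90.73), for Hspa1b (697, next 136.1) and for their sum (1553, next 226.8), so that these 3 are 1 pattern. The ibrutinib library of D in repeat peptide cells was the highest for Hspa1a (60.76, next 18.19). The ibrutinib library of A in repeat peptide cells was the highest for Hsph1 (4272, next 3385). The ibrutinib library of C in single peptide cells was the highest for Hsp90ab1 (100400, next 83190).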

How the results depend on the processing

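Leaving out libraries moved the inducible copies most. Over single libraries left out, the log2 fold change with ibrutinib in repeat peptide cells ranged from -4.55 to -1.76 for Hspa1a, from -2.90 to -1.22 for Hspa1b and from -3.53 to -1.44 for their sum, and the difference of the ibrutinib effects from -3.55 to -0.72, from -2.62 to -0.93 and from -3.12 to -1.03. With the replicate block, 2 of the 8 genes tested were called in single peptide cells with ibrutinib, and 5 of 8 with DMSO and 6 of 8 with ibrutinib between repeat and single peptide cells, also with the copies summed. Those counts were 1 and 1 without experiment D, 1 with DMSO under the effective length offset, and 1 to 3 in both when single libraries were left out. Of other chaperones in repeat peptide cells, 0 were called higher with ibrutinib without the filter, in a fit of the compared groups, with the offset and without experiment D, and 0 to 1 without single libraries. The number lower was 12 with the block, 5 by DESeq2's Wald test, 0 without experiment D and 1 to 5 without single libraries. With the block, 13.8% of all genes were called there in either direction. In single peptide cells the block gave 2 higher and 7 lower, against 2.77% and 6.32% of all genes. Between repeat and single peptide cells with ibrutinib, 17 were lower with the block, against 26.0% of all genes, and 6 without experiment D.

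Signs turned only for members that were not called without the block. In the fit with the block, differences between groups rest on A to D, without E and F. For ibrutinib in repeat peptide cells, Hspe1 was at 0.33 without the block and at -0.045 with it. Hsf1 there ranged from -0.12 to 0.0053 over the alternatives. For ibrutinib in single peptide cells, over single libraries left out, Hspa1b ranged from -0.54 to 0.053, the sum of the copies from -0.66 to 0.042, Hspe1 from -0.27 to 0.13 and Hsf1 from -0.11 to 0.096. Hspa1b was at 0.0050 without experiment D, and Hspe1 at 0.034 with the offset. Between repeat and single peptide cells, Hspa8 with DMSO ranged from -0.081 to 0.11 without single libraries and was at -0.069 with the block, also with the copies summed. Hspe1 with ibrutinib ranged from -0.36 to 0.20 without single libraries, was at 0.019, 0.018 and 0.019 with DESeq2's size factors, in the compared groups and in the Wald test, and at 0.14 without experiment D. The causes were not tested.

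Of 487 recomputed counts and main values, 441 stayed within 1.5 times of the count or within the spread between replicates of the value, and of 1156 values of single genes 1056 kept direction and side of the threshold. Over all genes, the block called 1694 in place of 726 with ibrutinib in repeat peptide cells and 1114 in place of 373 in single peptide cells, where 612 were called by DESeq2, 181 in the compared groups, 131 to 391 without single libraries and 21 without experiment D. In repeat peptide cells these were 1165, 464, 354 to 874 and 342. Leaving out experiment D and summing with the block were chosen after seeing the data. At 0 to 17.36 counts, depth limits what can be said of Hspa1a in single peptide cells.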
